A study of Homo sapiens with 18 samples.

Results

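The 7 genes of the Notch and RBPJ pathway, NOTCH2, RBPJ, MAML2, HES1, HEY1, DTX1 and NRARP, were followed in 3 chronic lymphocytic leukemia (CLL) cell lines. They are 7 of the 56609 gene symbols in the counts table, and all 7 passed the filter on low counts. They were chosen by symbol, with earlier results of these data known. The lines are HG3, MEC2 and PCL12, which are EBV-positive B-cell lines. Each line has 3 libraries stimulated with the TLR9 agonist CpG-ODN2006 at 2.5 μg/ml for 4 h and 3 unstimulated ones, 18 libraries in 6 groups. No genetic change was introduced in any group, each line stands for 1 leukemia, and the sources used here do not say whether replicates are separate cultures, so p-values measure the spread between these samples only. Levels are CPM, the reads counted on a gene scaled to the size of its library.

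Notch receptors are cut by ADAM10 and then by gamma-secretase after they bind a ligand of a neighbouring cell. The released intracellular part enters the nucleus, binds the DNA-binding factor RBPJ and recruits coactivators of the Mastermind (MAML) family. Without it, RBPJ carries corepressors. HES1 and HEY1 are repressors transcribed from RBPJ-bound genes, while NRARP and DTX1 are targets that act back on Notch signaling. In EBV-infected B cells the viral protein EBNA2 also reaches DNA through RBPJ, and NOTCH2 is the receptor that mature B cells need for the marginal zone fate. Viral transcripts were not analysed here.

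Library depth ran from 20382943 to 67308932 counts, at which 3 counts correspond to 0.0429 to 0.155 CPM. Such limits cover counting error only. The B-cell markers MS4A1, CD79A, CD79B, PAX5 and CD22 were present in every library, with MS4A1 at 589 to 1842 CPM and CD79B at 64.5 to 155 CPM. The T-cell, monocyte and natural killer markers summed to at most 2.40, 1.91 and 1.71 CPM. Of 3 fibroblast markers, COL1A1 stood at 26.8 to 81.5 CPM in HG3, 9.80 to 37.9 CPM in MEC2 and 5.13 to 14.9 CPM in PCL12. PDGFRB stood at 0 to 1.04, 0.684 to 2.25 and 2.56 to 5.54 CPM in the same lines, and COL1A2 at no more than 0.462 CPM in any. Their part in the results was not tested. CD5, which defines CLL cells, stood at 21.9 to 69.6 CPM in HG3 and at no more than 0.414 CPM in MEC2 and 1.35 CPM in PCL12. The PCL12 libraries numbered 2 and 3 stood apart from replicate 1. In them, 48 genes high in MEC2 and low in PCL12 replicate 1 had medians of 27.6% to 30.4% of their MEC2 level, against 2.32% and 2.36% in the replicate 1 libraries by which they were chosen. Admixed MEC2 material and a difference between PCL12 samples cannot be told apart from these values. The share of mitochondrial counts was 2.82% to 9.28% in 16 libraries. It was 20.2% in the second replicate of unstimulated HG3 and 19.7% in that of MEC2 with CpG.

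The RBPJ recognition sequence contains the letters TGGGAA. HES1 and NRARP are shown because they are RBPJ targets that differed between the lines below, with the highest level in different lines. The sequences are the 250 bases before the RefSeq start site (GRCh38.p14), 5′ to 3′ on the strand of the gene, at chr3:194135898-194136147 (plus strand) and chr9:137302272-137302521 (minus strand). Capitals mark TGGGAA or its reverse complement TTCCCA.
HES1: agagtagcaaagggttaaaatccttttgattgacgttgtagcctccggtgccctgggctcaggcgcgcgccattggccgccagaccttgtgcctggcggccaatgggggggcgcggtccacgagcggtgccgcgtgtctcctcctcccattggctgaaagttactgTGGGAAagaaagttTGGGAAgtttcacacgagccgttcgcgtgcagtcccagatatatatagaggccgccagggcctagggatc
NRARP: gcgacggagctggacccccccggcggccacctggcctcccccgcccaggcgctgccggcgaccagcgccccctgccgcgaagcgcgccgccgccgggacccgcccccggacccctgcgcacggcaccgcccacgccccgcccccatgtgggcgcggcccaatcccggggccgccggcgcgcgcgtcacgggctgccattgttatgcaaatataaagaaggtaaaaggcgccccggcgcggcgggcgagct
The HES1 stretch holds 2 copies of the motif on the gene's strand, which begin 84 and 70 bases before the start site and lie 14 bases apart, while the NRARP stretch holds 0. Searched on both strands, 20.8% of 35116 promoter stretches of the same length hold at least 1 copy and 2.90% hold at least 2. NOTCH2 and MAML2 hold 0 copies in their single stretch. RBPJ has 5 annotated starts, 1 of which has 2 copies. A match is a match of letters and not a measured binding site.

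Between unstimulated lines, 4 of the 7 genes passed the test in at least 1 comparison. Over all tested genes this share was not counted, and it is at least the 9.78% of MEC2 against HG3. HES1, DTX1, NRARP and NOTCH2 had their lowest mean in HG3, and RBPJ, MAML2 and HEY1 passed the test between no pair of lines. Levels were compared with edgeR's quasi-likelihood test over 31872 genes, and a gene was called at a Benjamini-Hochberg adjusted p under 0.05. For MEC2 against HG3, 2 of the 7 genes were called (HES1 and DTX1), against 9.78% of all tested genes. For PCL12 against HG3, 4 of 7 were called (DTX1, NRARP, HES1 and NOTCH2), against 9.44%, and all 4 were higher in PCL12. For MEC2 against PCL12, 1 of 7 was called (DTX1), against 2.05%. Among the 9870 genes at least as abundant as the least abundant of the 7, these shares of called genes were 16.8%, 15.2% and 4.00%. The median Log2FC of the 7 genes was 0.97, 1.25 and -0.10 in these comparisons, and the median over all tested genes was 0 in each. Both comparisons with HG3 rest on the same unstimulated HG3 libraries. The 7 genes were chosen with earlier results of these data known, so the shares are a description.

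**Figure D1:**
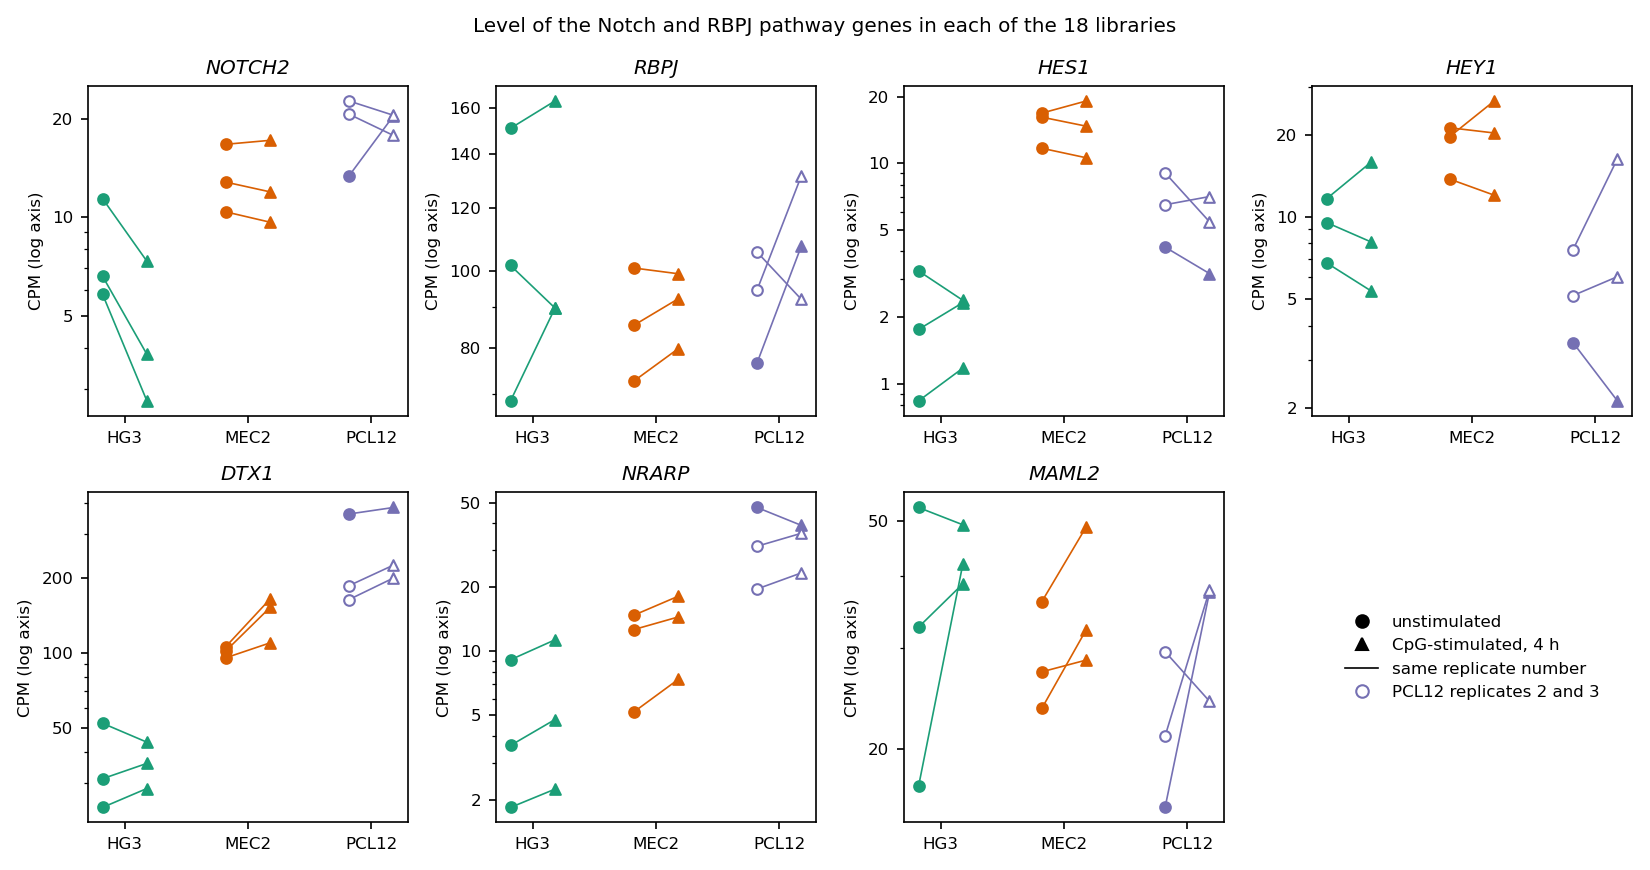
CPM on log axes for each of the 7 genes, 1 point per library, by cell line. Circles are unstimulated and triangles CpG-stimulated libraries, lines join samples with the same replicate number, and open symbols are the PCL12 libraries numbered 2 and 3. HES1 lies between 0.835 and 3.25 CPM in all HG3 libraries and between 10.6 and 19.2 CPM in all MEC2 libraries.

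HES1 (ENSG00000114315.4, chromosome 3 of GRCh38, 194136148 to 194138732, plus strand) encodes a basic helix-loop-helix repressor that is the classical Notch target. Its unstimulated levels were 0.835, 3.25 and 1.76 CPM in HG3 replicates 1, 2 and 3, from 38, 63 and 67 counts. They were 16.9, 16.2 and 11.7 CPM in MEC2 and 4.17, 6.49 and 9.05 CPM in PCL12. The 3 lines did not overlap, with MEC2 highest and HG3 lowest. Between MEC2 and HG3 the Log2FC was 2.96 (SE 0.49, adjusted p = 0.000111), a 7.79-fold difference that was called in all 6 fits that left out 1 library (Log2FC 2.59 to 3.55, the highest without HG3 replicate 2). Between PCL12 and HG3 the Log2FC was 1.78 (SE 0.47, adjusted p = 0.0133). In PCL12 the lowest value was that of replicate 1, and without the PCL12 libraries numbered 2 and 3 the Log2FC was 1.14 (adjusted p = 0.461, with 1 PCL12 library per group assumed to vary like the others). Leaving out single libraries called it in 3 of 6 fits (Log2FC 1.40 to 2.37, the highest without HG3 replicate 2), with the highest adjusted p, 0.0772, without unstimulated PCL12 replicate 3. MEC2 and PCL12, neighbours in this order, were not called different (Log2FC 1.18, 95% interval 0.25 to 2.11, adjusted p = 0.263, and 1.81 without the PCL12 libraries numbered 2 and 3, adjusted p = 0.328).

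HEY1 (ENSG00000164683.19), a related repressor, had another order. Unstimulated MEC2 held 19.7, 21.2 and 13.8 CPM, HG3 6.79, 9.54 and 11.7 CPM, and PCL12 3.46, 7.59 and 5.15 CPM. Every MEC2 library lay above those of both other lines, and HG3 and PCL12 overlapped. No pair of lines passed the test. The largest difference, MEC2 against PCL12, had a Log2FC of 1.75 (95% interval 0.65 to 2.86, adjusted p = 0.110). Of 9 other settings, 2 called it (0.000933 to 0.191), namely DESeq2 and the fit without a filter on low counts. In the fit without a filter the SE was 0.40, against 0.53, and P was that of a normal curve, without the gene's own spread. Of 6 fits that left out 1 library, 0 called it (0.114 to 0.470). The lowest PCL12 library was replicate 1, and without the PCL12 libraries numbered 2 and 3 the Log2FC was 2.37 for MEC2 against PCL12 and -1.41 for PCL12 against HG3 (adjusted p = 0.0676 and 0.295).

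DTX1 (ENSG00000135144.8, chromosome 12, 113056730 to 113098028, plus strand) encodes a Deltex ubiquitin ligase that binds the intracellular part of Notch. Unstimulated levels were 23.9, 31.2 and 52.1 CPM in HG3, 102, 106 and 95.4 CPM in MEC2 and 361, 186 and 164 CPM in PCL12. The lines did not overlap. DTX1 was 2.82-fold higher in MEC2 than in HG3 (SE 0.32 and 95% interval 0.84 to 2.15 for the Log2FC, adjusted p = 0.00210) and 6.62-fold higher in PCL12 than in HG3 (Log2FC 2.73, SE 0.33, adjusted p = 1.89e-06). Both differences were called in all 6 fits that left out 1 library and in all 9 other settings. The second had a Log2FC of 3.35 without the PCL12 libraries numbered 2 and 3. The Log2FC of MEC2 against PCL12 was -1.23 (SE 0.32, adjusted p = 0.0371). That call was kept in 2 of the 6 fits without 1 library, and without unstimulated PCL12 replicate 1 the Log2FC was -0.78 (adjusted p = 0.447). The call was also lost with limma-voom (Log2FC -1.13, adjusted p = 0.0509). Without the libraries rich in mitochondrial counts, none of them in this comparison, it was lost too (Log2FC -1.23, adjusted p = 0.0667). Here replicate 1 was the highest PCL12 library, and MEC2 lay below PCL12. Without the other PCL12 libraries the Log2FC was -1.86.

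NRARP (ENSG00000198435.4, chromosome 9, 137299631 to 137302271, minus strand) encodes an ankyrin repeat protein that binds the RBPJ complex and limits Notch signaling. Unstimulated levels were 1.85, 3.61 and 9.13 CPM in HG3, 14.8, 12.7 and 5.19 CPM in MEC2 and 47.4, 31.2 and 19.6 CPM in PCL12. HG3 and MEC2 overlapped, and all PCL12 libraries were above both. NRARP was 6.72-fold higher in PCL12 than in HG3 (Log2FC 2.75, SE 0.63, adjusted p = 0.00836), a call lost only without unstimulated HG3 replicate 2 among the fits without 1 library (adjusted p = 0.0546). Its Log2FC ran from 2.38 to 3.61 over these fits, the highest without HG3 replicate 3. The other setting without that replicate 2 library, chosen after seeing the data, also leaves out CpG-stimulated MEC2 replicate 2. It gave a Log2FC of 2.58 (adjusted p = 0.0854). MEC2 was not called different from HG3 (Log2FC 1.16, 95% interval -0.12 to 2.43, adjusted p = 0.274) or from PCL12 (Log2FC -1.59, 95% interval -2.87 to -0.31, adjusted p = 0.292). Without HG3 replicate 3 the Log2FC against HG3 was 2.01 (adjusted p = 0.0563), and without HG3 replicate 1 it was 0.78. Without a filter on low counts both comparisons were called (adjusted p = 0.0209 and 0.000452). In that fit the SE was 0.36 in both, against 0.61 with the filter, and P was that of a normal curve. The gene's own spread between replicates was thus not used. Within every line the replicates spread widely, with a coefficient of variation of 42.6% to 78.1% in unstimulated and 25.3% to 76.6% in CpG-stimulated groups. The order of the 3 replicates was the same before and after CpG in each line. An exon of an unnamed gene lies on the opposite strand of NRARP, and likewise of MAML2, and the strand setting of the counting is not given in the sources used here.

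NOTCH2 (ENSG00000134250.21, chromosome 1, 119911553 to 120100779, minus strand) is the receptor of the group. Unstimulated HG3 held 6.62, 5.83 and 11.4 CPM, MEC2 10.4, 12.8 and 16.7 CPM and PCL12 13.4, 22.7 and 20.7 CPM. HG3 and PCL12 did not overlap, and MEC2 overlapped both. NOTCH2 was 2.37-fold higher in PCL12 than in HG3 (Log2FC 1.25, SE 0.37, adjusted p = 0.0297). This call was kept in 2 of the 6 fits without 1 library, with the highest adjusted p, 0.114, without unstimulated PCL12 replicate 2. Without the libraries rich in mitochondrial counts the Log2FC was 1.07 (adjusted p = 0.0950). The PCL12 replicate 1 library was the lowest of its group, and without the PCL12 libraries numbered 2 and 3 the Log2FC was 0.77 (adjusted p = 0.652). MEC2 was not called different from HG3 (Log2FC 0.74, 95% interval -0.01 to 1.49) or from PCL12 (Log2FC -0.51, 95% interval -1.25 to 0.24). The near-identical NOTCH2NL had 108 counts in all 18 libraries together, so few reads were assigned to it, but reads of the shared exons may be split or lost.

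RBPJ (ENSG00000168214.22, chromosome 4, 26163455 to 26435131, plus strand), the DNA-binding factor itself, stood at 68.6 to 151 CPM in unstimulated HG3, 72.7 to 101 CPM in MEC2 and 76.6 to 106 CPM in PCL12. The lines overlapped throughout. The Log2FC was -0.31 for MEC2 against HG3 (95% interval -0.88 to 0.26), -0.22 for PCL12 against HG3 (-0.79 to 0.36) and -0.10 for MEC2 against PCL12 (-0.67 to 0.48), and none was called. The processed copies RBPJP2, RBPJP5, RBPJP6 and RBPJP7 had 0 counts. MAML2 (ENSG00000184384.15, chromosome 11, 95976598 to 96343195, minus strand), a Mastermind coactivator, ranged from 17.2 to 52.7 CPM in HG3, 23.6 to 36.1 CPM in MEC2 and 15.8 to 29.6 CPM in PCL12. These groups overlapped too, and the largest difference, PCL12 against HG3, had a Log2FC of -0.63 (95% interval -1.30 to 0.05, adjusted p = 0.267). The lowest HG3 library for both genes was replicate 2, the one rich in mitochondrial counts. Without the libraries rich in these counts, a setting chosen after seeing the data, MAML2 was called lower in PCL12 than in HG3 (Log2FC -0.94, adjusted p = 0.0396). Without HG3 replicate 3, the highest HG3 library, the Log2FC was -0.17 (adjusted p = 0.836).

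**Figure D2:**
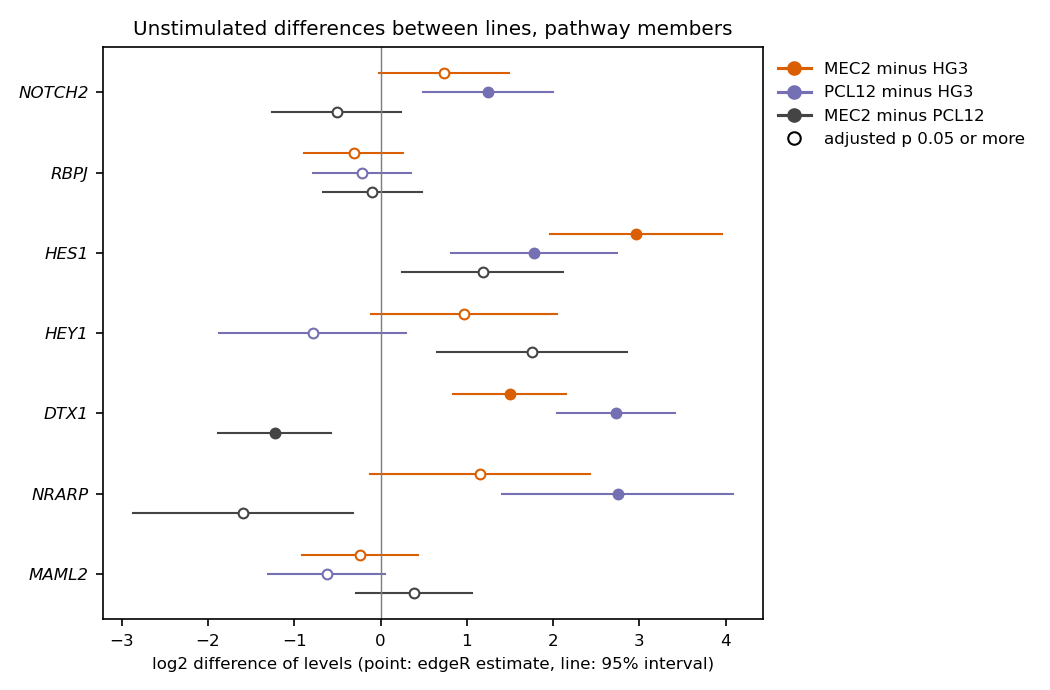
Log2 differences between unstimulated lines for the 7 genes (x axis), 1 row per gene and 1 colour per pair of lines. Points are edgeR estimates, bars 95% intervals, and filled points have an adjusted p under 0.05. DTX1 is filled in all 3 comparisons, and the intervals of RBPJ and MAML2 include 0 in each.

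The CpG-stimulated libraries of the lines were set against each other by counting the genes without overlap. Between CpG-stimulated MEC2 and HG3, NOTCH2, HES1 and DTX1 did not overlap and were higher in MEC2, 3 of 7 genes against 23.7% of all tested genes (unstimulated 3 of 7 against 22.2%). Between CpG-stimulated PCL12 and HG3, 5 of 7 did not overlap against 27.2%, with NOTCH2, HES1, DTX1 and NRARP higher and MAML2 lower in PCL12 (unstimulated 4 of 7 against 21.1%). Between MEC2 and PCL12, 4 of 7 did not overlap after CpG against 16.6%, HES1 being higher and NOTCH2, DTX1 and NRARP lower in MEC2 (unstimulated 4 of 7 against 17.3%). For 3 against 3 libraries, the exact permutation test cannot go below p = 0.1, the value of each of these genes.

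None of the 7 genes passed the test for CpG stimulation. In edgeR, 0 of 7 had an adjusted p under 0.05 in HG3, MEC2 or PCL12, or in the mean effect over the lines, against 0.00314%, 0.00314%, 0% and 0.00941% of all tested genes. At an unadjusted p under 0.05 there were 1, 0, 0 and 1 of 7 genes, against 3.73%, 2.46%, 2.09% and 4.04% of all genes. Their median Log2FC was 0.07, 0.11, 0.19 and 0.21, against 0.00, 0.00, 0.02 and 0.03 over all genes. DESeq2 and limma-voom also gave 0 in each. In edgeR, none met the thresholds of the study's DEG definition (nominal P value under 0.01 and |Log2FC| of at least 1). Of all genes, 0.496%, 0.251%, 0.116% and 0.527% met them. The study applied its definition to limma values and reported more genes per line than the 158, 80 and 37 in HG3, MEC2 and PCL12 here. The differences of the CpG effect between lines also gave 0 of 7 calls with edgeR, DESeq2 or limma-voom, against 0.00314% (PCL12 against HG3), 0% (MEC2 against HG3) and 0% (MEC2 against PCL12) of all genes in edgeR. At an unadjusted p under 0.05 there were 0 of 7, against 4.16%, 4.10% and 3.23%.

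The largest CpG Log2FC within a line, by size, was that of NOTCH2 in HG3. It stood at 3.82, 2.75 and 7.35 CPM after CpG and at 6.62, 5.83 and 11.4 CPM without it. Each replicate was lower after CpG, with ratios of 0.577, 0.472 and 0.644, but the groups overlapped because replicate 3 was the highest in both. The Log2FC was -0.78 (95% interval -1.54 to -0.02), with a nominal P value of 0.0439 in edgeR and an adjusted p of 1. It was -0.43 without unstimulated replicate 3 and -1.28 without CpG-stimulated replicate 3. With the pairs as a block, the nominal P value was 0.00426 and the adjusted p 0.601. That P value is of a normal curve, so the gene's own spread between pairs did not enter. In MEC2 the ratios were 0.930, 0.933 and 1.03, and in PCL12 1.52, 0.904 and 0.861. The difference of the CpG effect was not called for PCL12 against HG3 (Log2FC 0.83, adjusted p = 1.00) or MEC2 against HG3 (Log2FC 0.74, adjusted p = 1.00).

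Pairs are libraries of a line with the same number, which in MEC2 replicates 1 and 2 did not correlate best with each other. MAML2 was higher after CpG in 7 of 9 pairs, with log2 ratios from -0.29 to 1.29. The mean effect over the lines was a Log2FC of 0.42 (95% interval 0.03 to 0.81, nominal P value 0.0360 and adjusted p = 1.00 in edgeR). With the pairs as a block it was 0.46 (SE 0.13) with an adjusted p of 0.0599, again from a normal curve without the gene's own spread. The highest ratios were 2.44 in HG3 replicate 2, whose unstimulated library is rich in mitochondrial counts, and 2.37 in PCL12 replicate 1. In PCL12 the Log2FC was 0.58, and 1.24 without the PCL12 libraries numbered 2 and 3, neither of them called. DTX1 was higher in 8 of 9 pairs, and in MEC2 the CpG-stimulated libraries (152, 164 and 110 CPM) lay above all unstimulated ones, 1 of 7 genes without overlap there against 4.72% of all genes (0 of 7 against 3.72% in HG3 and 4.55% in PCL12). Its Log2FC in MEC2 was 0.49 (95% interval -0.15 to 1.14, adjusted p = 1). NRARP was also higher in 8 of 9 pairs, by ratios between 1.15 and 1.42, the exception being PCL12 replicate 1 at 0.824. Over all genes, 1.64% were higher in at least 8 of 9 pairs and 5.90% in at least 7.

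RBPJ was higher in 6 of 9 pairs, HES1 and HEY1 in 4 and NOTCH2 in 2. HES1 had log2 ratios from -0.74 to 0.49, and its mean effect over the lines was -0.10 (95% interval -0.64 to 0.43). HEY1 had the widest spread in PCL12, with ratios of 0.612, 2.15 and 1.17. The PCL12 Log2FC of HEY1 was 0.59, and -0.71 without the PCL12 libraries numbered 2 and 3, neither of them called.

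**Figure D3:**
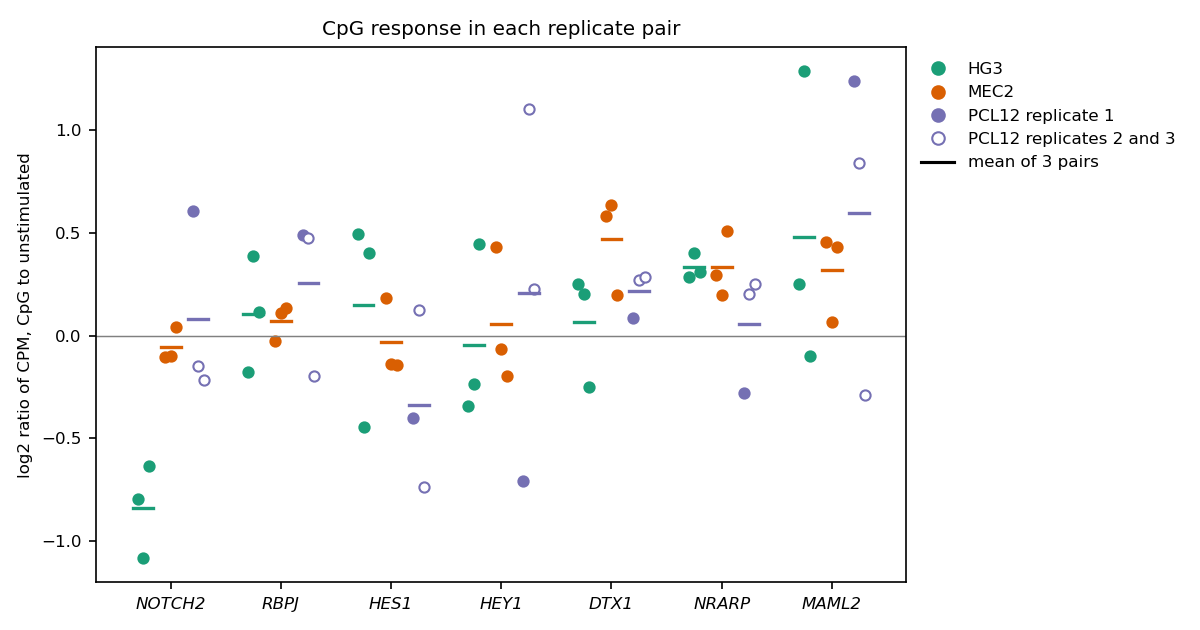
Log2 ratio of CPM in CpG-stimulated to unstimulated cells (y axis) for each replicate pair of the 7 genes, coloured by line. Short bars are means of 3 pairs, and open points are PCL12 pairs 2 and 3. NOTCH2 is below 0 in all 3 HG3 pairs, and NRARP is above 0 in 8 of 9 pairs.

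Of 61 other genes of the pathway, sorted by role, all were tested and 17 were called between at least 1 pair of unstimulated lines. This share was not counted over all genes, and shares are given per comparison. For MEC2 against HG3, 6 were higher and 8 lower in MEC2, against 4.81% and 4.97% of all genes. For PCL12 against HG3, 4 were higher and 4 lower in PCL12, against 4.87% and 4.57%. For MEC2 against PCL12, 0 were higher and 4 lower in MEC2 (edgeR), against 0.524% and 1.53%. Among the 9870 abundant genes described above, 16.8%, 15.2% and 4.00% were called in either direction, though some of the 61 genes are less abundant. The median Log2FC of the 61 genes was -0.28, -0.09 and -0.05, with 0 over all genes in each comparison. Of these 14, 8 and 4 calls, 10, 5 and 2 were kept in all 6 fits that left out 1 unstimulated library. Without the PCL12 libraries numbered 2 and 3, 4 of the 8 calls against HG3 were kept (DLL1, FURIN, APH1B and DTX3). The other 4 were lost in this fit with 1 PCL12 library per group, though none moved over 1.5-fold. The Log2FC was -1.63 for CCR7 (-1.65 with all libraries), -1.50 for FCER2 (-1.89), -2.87 for HEY2 (-2.83) and 0.67 for CR2 (0.91). CpG gave 0 calls among them in each line and in the mean over lines with edgeR, DESeq2 and limma-voom, and 1, 0, 2 and 1 genes at an unadjusted p under 0.05 in edgeR.

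Among the ligands, 2 of 5 were lower in MEC2 than in HG3 and 1 of 5 in PCL12, against 4.97% and 4.57% of all genes. DLL1 stood at 5.56, 9.65 and 18.8 CPM in unstimulated HG3 and at 0.705 to 1.83 CPM in the other lines. The Log2FC was -3.11 for MEC2 (adjusted p = 0.000300) and -3.55 for PCL12 (adjusted p = 7.80e-05). DLL3, a ligand-like protein that does not activate Notch in neighbouring cells, was lower in MEC2 than in HG3 (Log2FC -5.05, adjusted p = 0.000132) and than in PCL12 (Log2FC -3.96, adjusted p = 0.00562). Of the other receptors, NOTCH1, which is often mutated in CLL, was called only between MEC2 and PCL12, where it stood at 96.9 to 136 CPM and 214 to 495 CPM (Log2FC -1.62, adjusted p = 0.0206). That call was kept in 1 of 6 fits, the one without PCL12 replicate 3, and its highest adjusted p was 0.107 without MEC2 replicate 3.

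The enzymes that process the receptor were called in both directions. FURIN, which cuts the precursor, was higher in MEC2 (Log2FC 1.64, adjusted p = 0.000158) and PCL12 (Log2FC 1.73, adjusted p = 8.12e-05) than in HG3. APH1B, a gamma-secretase subunit, was also higher in both (Log2FC 1.70, adjusted p = 0.00699 in MEC2 and Log2FC 1.62, adjusted p = 0.0105 in PCL12). Without HG3 replicate 3 these were 2.39 and 2.31, and the PCL12 call was lost without HG3 replicate 1 or PCL12 replicate 1 (highest adjusted p 0.0618). ADAM10 was higher in MEC2 (Log2FC 1.19, adjusted p = 0.00278), and PSEN2, another gamma-secretase subunit named here after its values were seen, was the 1 of 9 processing genes called lower there (Log2FC -1.06, adjusted p = 0.0412). The PSEN2 call was kept in 0 of 6 fits without 1 library, where the Log2FC ran from -1.13 to -0.96 and the adjusted p reached 0.163 without MEC2 replicate 3. The 5 glycosylation genes and 6 other coactivators gave 0 calls between lines in edgeR.

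Among 10 corepressors, TLE1, of the Groucho type, stood at 27.3, 23.99 and 72.7 CPM in unstimulated HG3, 2.46, 2.90 and 0.741 CPM in MEC2 and 35.9, 14.2 and 7.94 CPM in PCL12. It was lower in MEC2 than in HG3 (Log2FC -4.35, adjusted p = 0.000456) and than in PCL12 (Log2FC -3.26, adjusted p = 0.0145). Without HG3 replicate 3 the first was -3.66. The second was -4.18 without the PCL12 libraries numbered 2 and 3 (adjusted p = 0.00102). Without PCL12 replicate 1 it was -2.44, and its call was lost there and without MEC2 replicate 1 or 3 (highest adjusted p 0.0702). L3MBTL3, which binds RBPJ, was higher in MEC2 than in HG3 (Log2FC 1.81, adjusted p = 0.00701), as was HDAC1 (Log2FC 0.73, adjusted p = 0.0428). The L3MBTL3 call was lost without MEC2 replicate 3 (adjusted p = 0.0524). The HDAC1 call was kept only without HG3 replicate 1, of 6 fits (highest adjusted p 0.119, without MEC2 replicate 3). Of 10 negative regulators, the Deltex genes DTX3 and DTX4 were called. DTX3 stood at 0.462 to 1.91 CPM in unstimulated HG3, 28.1 to 37.6 CPM in MEC2 and 49.3 to 93.3 CPM in PCL12 (Log2FC 5.09, adjusted p = 1.86e-06, and 6.12, adjusted p = 2.97e-07, against HG3). Without HG3 replicate 2 the Log2FC was 5.87 and 6.90. DTX4 was lower in MEC2 than in HG3 (Log2FC -2.62, adjusted p = 5.22e-06, and -1.95 without HG3 replicate 3) and than in PCL12 (Log2FC -1.96, adjusted p = 0.000829).

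Of the 7 other HES and HEY genes, HEY2 alone was called, lower in PCL12 than in HG3 (Log2FC -2.83, adjusted p = 0.0149). Its call was lost without PCL12 replicate 1 or 3 (highest adjusted p 0.0926). Among 6 B-cell genes known as targets of RBPJ through Notch or EBNA2, FCER2, which encodes CD23, stood at 1503, 3248 and 1650 CPM in unstimulated HG3, 485, 497 and 285 CPM in MEC2 and 745, 680 and 303 CPM in PCL12. It was lower in MEC2 (Log2FC -2.34, adjusted p = 4.07e-05) and PCL12 (Log2FC -1.89, adjusted p = 0.000440) than in HG3, the line with the lowest HES1 and DTX1. The chemokine receptor gene CCR7 was likewise lower in MEC2 (Log2FC -2.29, adjusted p = 4.35e-06) and PCL12 (Log2FC -1.65, adjusted p = 0.000249) than in HG3. CD300A, an inhibitory receptor, was lower in MEC2 (Log2FC -1.27, adjusted p = 0.0180), a call kept only without HG3 replicate 1 or MEC2 replicate 1 (highest adjusted p 0.119, without HG3 replicate 3). CR2, which encodes CD21, was higher in PCL12 than in HG3 (Log2FC 0.91, adjusted p = 0.0491), a call kept only without HG3 replicate 3 or PCL12 replicate 1 (highest adjusted p 0.148, without HG3 replicate 2).

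**Figure D4:**
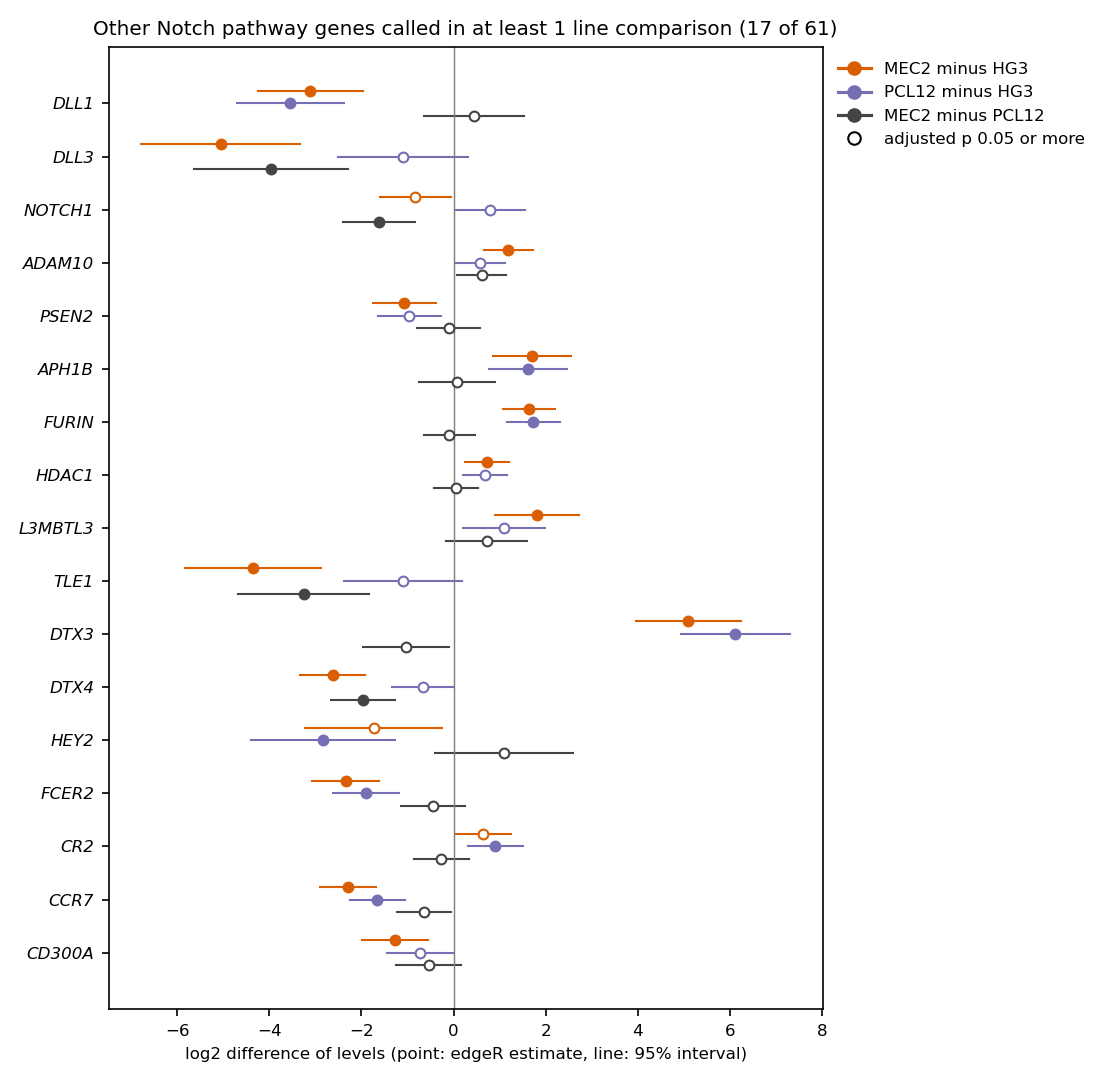
Log2 differences between unstimulated lines (x axis) for the 17 other pathway genes called in at least 1 comparison, ordered by role from ligands to targets. Points are edgeR estimates, bars 95% intervals, and filled points have an adjusted p under 0.05. DTX3 lies farthest to the right, and DLL1, FCER2 and CCR7 lie to the left of 0 against HG3 for both lines.

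The pattern of each gene over the 18 libraries was compared with 13991 genes whose mean reached 1 CPM, as Pearson's r of log2(CPM + 1). The libraries share their line and, within a line, their replicate number, and the values are a description. The closest genes were CDON, TBL1X and BCAR1 for HES1 (r = 0.97, 0.97 and 0.97), ASB2, CDK5R1 and SIRPA for DTX1 (0.97, 0.96 and 0.96) and VSIR, ZYX and BAIAP2 for NRARP (0.97, 0.96 and 0.96). For NOTCH2 they included CPNE2 and RAB15 (0.93 and 0.90), and for HEY1 TNFRSF11A, LSAMP and FCRL3 (0.91, 0.91 and 0.90). RBPJ was closest to TMEM30A, NAMPT and OTUD4 (0.92, 0.92 and 0.91), and MAML2 to MED14, B4GALT6 and UTP15 (0.88, 0.87 and 0.83). With the line means removed, r was 0.93, 0.92 and 0.93 for the genes closest to RBPJ and 0.87, 0.86 and 0.81 for those closest to MAML2. It was 0.78, 0.73 and 0.71 for HES1, 0.72, 0.69 and 0.67 for DTX1 and 0.88, 0.82 and 0.85 for NRARP. For HEY1 it was 0.82, 0.85 and 0.85, and for CPNE2 and RAB15 with NOTCH2 0.73 and 0.50. Among the 7 genes themselves, DTX1 and NRARP were the closest pair (r = 0.92, and 0.78 with the line means removed). HES1 and HEY1 had an r of 0.59, and 0.68 with the line means removed.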

How the data were processed

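RNA of HG3, MEC2 and PCL12 cells was sequenced as single reads, 3 CpG-stimulated and 3 unstimulated libraries per line. The counts deposited by the authors are whole reads per gene symbol without normalization. The submitters' processing notes name FastQC, MultiQC, Trimmomatic, STAR, featureCounts and hg38. Versions, annotation and handling of duplicate reads are not given in the sources used here. The labels name a ReliaPrep RNA kit and a stranded QuantSeq library, whose reads come from transcript ends. The study's methods name a Qiagen kit and a stranded reverse library without a product, so whether counts depend on transcript length was not settled. Levels of different genes were used only to match abundance.

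The deposited counts were tested in R 4.3.3 with edgeR 4.0.16 in 1 fit of 6 group means (12 residual degrees of freedom, TMM factors, robust quasi-likelihood test). The 31872 genes with at least 10 summed counts were tested, and p was adjusted over all of them. CPM used the same factors. Figures and descriptions used Python 3.11.15. Total counts of 20382943 to 67308932 per library set the precision.

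Samples were grouped by title, and all 18 columns were used. The series description puts 1 stimulated and 1 unstimulated sample in each replicate series, so numbers pair samples within a line. After group means were removed, same-numbered HG3 libraries correlated at 0.39, 0.36 and 0.66. The values were 0.22, 0.04 and 0.68 for MEC2 and 0.64, 0.56 and 0.56 for PCL12. In MEC2, CpG 1 correlated more with unstimulated 2 (0.49) and CpG 2 with unstimulated 1 (0.43), so the pairing there rests on the series description. No replicate pair had identical counts.

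The alternatives were DESeq2 1.42.0, limma-voom (limma 3.58.1), RLE factors, library totals, filterByExpr, no filter, a replicate block, each library left out, and the PCL12 libraries numbered 2 and 3 left out. Leaving out both libraries rich in mitochondrial counts was added after seeing the data. Fits were tested on simulated data. The 7 genes were named in every comparison. Of the 61 others, up to 3 called genes per role and comparison were named, by smallest P. Members and lists were chosen with earlier results of these data known. Positions are from GENCODE release 44 on GRCh38, and promoters from RefSeq, where 5 of the 7 genes were searched. HEY1 was left out of the search without a match being tried, and DTX1 had no entry in the promoter set used. A marker gene and a gene of similar pattern are not reported here.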

Additional observations from a re-analysis of the deposited data

How the results depend on the processing

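Over 819 refits of a member's Log2FC, 735 kept direction and side of the adjusted p of 0.05, 18 lost a call, 5 gained one and 61 changed sign. No sign change had an adjusted p under 0.768, and the causes were not tested. No call among the members or the 61 other genes appeared for CpG in any of 270 alternatives. HES1 in HG3 had 38 to 79 counts per library, with a coefficient of variation of 62.5% in unstimulated and 34.8% in CpG-stimulated libraries. Where an alternative left 1 PCL12 library per group, that library was assumed to vary like the others. The replicate block changed no call between lines or for CpG. With the pairs as a block, and for NRARP and HEY1 without a filter, P was that of a normal curve. A gene's own spread between replicates did not enter there.

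Between PCL12 and HG3, called members fell from 4 to 2 without the PCL12 libraries numbered 2 and 3, and to between 2 and 4 without 1 library. The lower value came without HG3 replicate 1, HG3 replicate 2 or PCL12 replicate 3. The 8 other genes became 14 with DESeq2, 13 without a filter, 4 without those PCL12 libraries and 6 to 11 without 1 library. Between MEC2 and PCL12, the 1 called member became 2 with DESeq2, 0 with limma-voom, 3 without a filter, 0 without the libraries rich in mitochondrial counts, and 0 to 1 without 1 library. The lower value came without any MEC2 library or PCL12 replicate 1. The 4 other genes became 2 to 5, and the lower value came without MEC2 replicate 1, MEC2 replicate 3 or PCL12 replicate 1. The block for the replicate number left 2, 4 and 1 members called between lines, and the block for pairs 0 for CpG in each line.

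Changed signs were as follows. With DESeq2, the CpG Log2FC was -0.012 for HES1 and -0.0071 for DTX1 in HG3, and -0.0093 for NRARP in PCL12. With RLE scaling these were -0.017, -0.0071 and -0.0090. With limma-voom, HEY1 was at -0.047 in HG3, -0.080 in PCL12 and -0.0017 in the mean, and HES1 at 0.011 in MEC2. With the replicate block of pairs HEY1 was at -0.040 in HG3. Without a filter, HES1 was at 0.011 in MEC2. Without the libraries rich in mitochondrial counts, RBPJ was at -0.14 and DTX1 at -0.076 in HG3, NOTCH2 at 0.010 in MEC2 and HES1 at 0.086 in the mean. Without the PCL12 libraries numbered 2 and 3, HES1 was at 0.011 in MEC2, HEY1 at -0.71 and NRARP at -0.28 in PCL12, HEY1 at -0.17 in the mean, and RBPJ at 0.14 for unstimulated MEC2 against PCL12.

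Leaving out 1 library gave ranges across 0. In HG3 the CpG Log2FC ran from -0.25 to 0.42 for RBPJ, -0.34 to 0.63 for HES1, -0.47 to 0.36 for HEY1, -0.20 to 0.39 for DTX1 and -0.47 to 1.18 for NRARP. In MEC2 it ran from -0.30 to 0.16 for NOTCH2, -0.043 to 0.17 for RBPJ, -0.24 to 0.18 for HES1, -0.17 to 0.36 for HEY1 and -0.038 to 0.59 for NRARP. In PCL12 it ran from -0.14 to 0.21 for NOTCH2, -0.42 to 1.04 for HEY1, -0.17 to 0.63 for DTX1 and -0.27 to 0.37 for NRARP. The mean effect ran from -0.23 to 0.089 for HES1, -0.089 to 0.40 for HEY1 and -0.058 to 0.49 for NRARP. Between unstimulated lines, RBPJ ran from -0.53 to 0.020 (MEC2 against HG3), -0.43 to 0.12 (PCL12 against HG3) and -0.21 to 0.013 (MEC2 against PCL12), and MAML2 from -0.54 to 0.21 (MEC2 against HG3). Library totals in place of TMM moved the median Log2FC of all genes by 0.11 for MEC2 and 0.15 for PCL12 against HG3.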
